A study of Homo sapiens with 7 samples.

Results

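The extended major histocompatibility complex (MHC) interval on chromosome 6 was examined in peak lists of acetylated HOXB13. It was taken as every peak whose midpoint lay between 26000000 and 33500000 on hg19, a stretch of 7.5 Mb. Of the 148463 peaks in the 6 deposited lists, 879 lay there. Each list came from chromatin immunoprecipitation and sequencing of C4-2B, an established castration-resistant prostate cancer cell line, kept in medium whose serum had been stripped with charcoal to lower its steroid content. The antibody recognised HOXB13, a homeodomain transcription factor of the prostate, carrying an acetyl group on lysine 13. The study's 7 libraries comprised 3 precipitations with this antibody, 2 with non-specific IgG and 2 of input chromatin. All 7 were of untreated cells, and only the HOXB13-K13ac libraries have lists named after them. Of the 6 lists, 5 name IgG or input as the background.

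The interval joins regions of different gene content. The histone gene clusters at its start encode the H1 linker and the H2A, H2B, H3 and H4 core histones, which are made in bulk when DNA is copied. MHC class I genes encode proteins that present peptides from inside the cell to CD8 T cells. Class II genes (HLA-DR, HLA-DQ and HLA-DP) present peptides taken up from outside to CD4 T cells, mostly on antigen-presenting cells. Class III lies between them and is a gene-dense stretch with complement components, heat shock proteins of the HSPA1 family and tumour necrosis factor.

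RefSeq on GRCh38.p14 lists 55 histone genes on chromosome 6, of which 6 encode H1, 12 H2A, 15 H2B, 10 H3 and 12 H4. From HLA-F to MICB, in class I, it has 49 protein-coding genes, and from LTB to NOTCH4, in class III, it has 53. Tumour necrosis factor is not among these 53. From HLA-DRA to HLA-DPB1, in class II, it has 18. In that order, HLA-DRA, HLA-DRB5, HLA-DRB1, HLA-DQA1 and HLA-DQB1 come first. They are followed further on by the peptide transporters TAP2 and TAP1, the immunoproteasome subunits PSMB8 and PSMB9, HLA-DMB, HLA-DMA, the bromodomain gene BRD2, HLA-DOA and HLA-DPA1. That build is not the build of the peaks, so it was used for names and order alone. The gene counts are of these spans and not of the windows used below. No peak was assigned to a gene, and sites are given by position.

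The lists were not alike. Replicate 1 held 284 peaks in the interval of 41303 in its list, replicate 2 against input 253 of 45216, and replicate 3 against input 55 of 18232. Replicate 2 called against IgG had 58 of 7506, and replicate 3 against IgG had 0 of 1. A further list against input, with a name that fits no library, had 229 of 36205 and is called the unassigned list. Replicate 3 stood apart with fewer and narrower peaks. Interval peaks had a median width of 595 bp in replicate 1, 819 bp in replicate 2 and 255 bp in replicate 3, against 555, 634 and 235 bp in the rest of the genome. No control is named for replicate 1, and its list is told from that of replicate 3 by a punctuation mark in the name. Read depths are unknown, so peak numbers could not be scaled to depth. The labels do not say that replicates were separate cultures, so the spread between them may be technical. They place replicates 2 and 3 in the same library series and replicate 1 in another, each series with its own IgG and input. The lists of replicates 2 and 3 may therefore share controls, while the SDs and sign-flip tests below count the 3 libraries as independent.

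Peaks were denser in the interval than in the rest of the genome in all 3 replicate lists, but by a smaller factor in replicate 3. Replicate 1 had 37.9 peaks per Mb (95% Poisson interval 33.6 to 42.5) in the interval, against 13.7 per Mb in the rest of the genome, a 2.76-fold density. Replicate 2 had 33.7 (29.7 to 38.2) against 15.0, a 2.24-fold density. Replicate 3 had 7.33 (5.52 to 9.55) against 6.08, a 1.21-fold density, and 6.08 lay within its interval. The mean log2 ratio was 0.97 ± 0.62 (SD, n = 3). It was positive in 3 of 3 libraries, with p = 0.25 in a two-sided exact sign-flip permutation test, the smallest p that 3 libraries allow. The interval was 0.25% of the genome span and held 0.688% of the replicate 1 list, 0.560% of the replicate 2 list and 0.302% of the replicate 3 list. These intervals cover counting error alone, and neighbouring peaks are not independent.

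**Figure D1:**
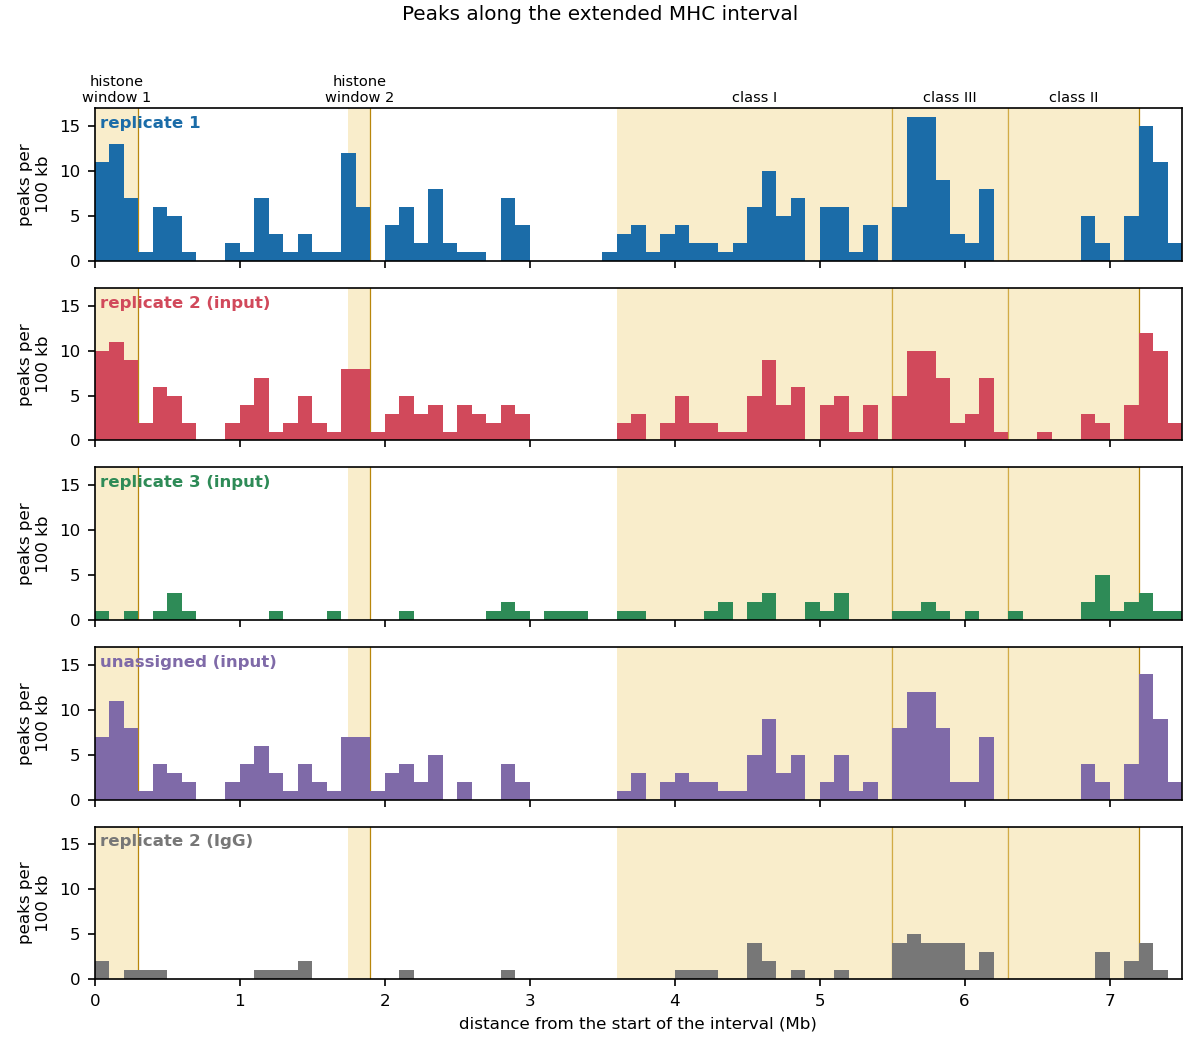
Peaks in bins of 100 kb against distance from the start of the interval in Mb, with a panel for each list and the 5 windows shaded, class I, III and II being adjacent. Replicates 1 and 2 and the unassigned list have tall bins in both histone windows, in class III and just after class II, while replicate 3 reaches at most 5 peaks in a bin.

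Density was uneven along the interval. Of its 75 bins of 100 kb, 18 had no replicate 1 peak, 16 no replicate 2 peak and 39 no replicate 3 peak. The fullest bin held 16 peaks in replicate 1, at 31600000 to 31699999, and another bin had as many. It held 12 in replicate 2, at 33200000 to 33299999, and 5 in replicate 3, at 32900000 to 32999999. The 3 lists therefore had their fullest bins in different places, but replicates 1 and 2 differed little in this. Replicate 1 held 15 peaks in the fullest bin of replicate 2, and replicate 2 held 10 at 31600000 to 31699999. Ranked by replicate 1 peaks among 2841 tiles of 1 Mb, the tile from 31 to 32 Mb came 38th with 67 peaks, and that from 29 to 30 Mb came 1206th with 12. Replicate 2 had 48 and 7 peaks in these tiles, at ranks 107 and 1847, and replicate 3 had 9 and 5, at ranks 586 and 1244. The tile from 33 to 34 Mb, which runs past the interval's end, held 75, 63 and 16 peaks in replicates 1, 2 and 3, and ranked 17th, 26th and 189th.

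The histone windows were among the densest stretches in replicates 1 and 2, but not in replicate 3. The window from 26000000 to 26300000 held 31, 30 and 2 peaks in replicates 1, 2 and 3. That was 103 peaks per Mb (70.2 to 147) in replicate 1 and 100 (67.5 to 143) in replicate 2, which were 7.54-fold and 6.65-fold the density in the rest of the genome. Replicate 3 had 6.67 per Mb (0.807 to 24.1), a 1.10-fold density. The mean log2 ratio of 1.93 ± 1.56 (SD, n = 3) was positive in 3 of 3 libraries, with an exact sign-flip p of 0.25.

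The window from 27750000 to 27900000 held 15, 15 and 0 peaks in replicates 1, 2 and 3. Its density was 7.29-fold that of the rest of the genome in replicate 1 and 6.65-fold in replicate 2, a mean log2 ratio of 2.80 ± 0.09 (SD, n = 2) with replicate 3 left out because a ratio of 0 has no logarithm. A count of 0 in replicate 3 allows up to 24.6 peaks per Mb, which includes the 6.08 per Mb of the rest of its genome, so at this window size a lower density was not detectable. Among the 18232 strongest peaks of each list, replicates 1 and 2 had 2.20-fold and 7.72-fold densities in this window. Replicate 1 kept 2 of its 15 peaks there, so the others were in the weaker part of its list.

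**Figure D2:**
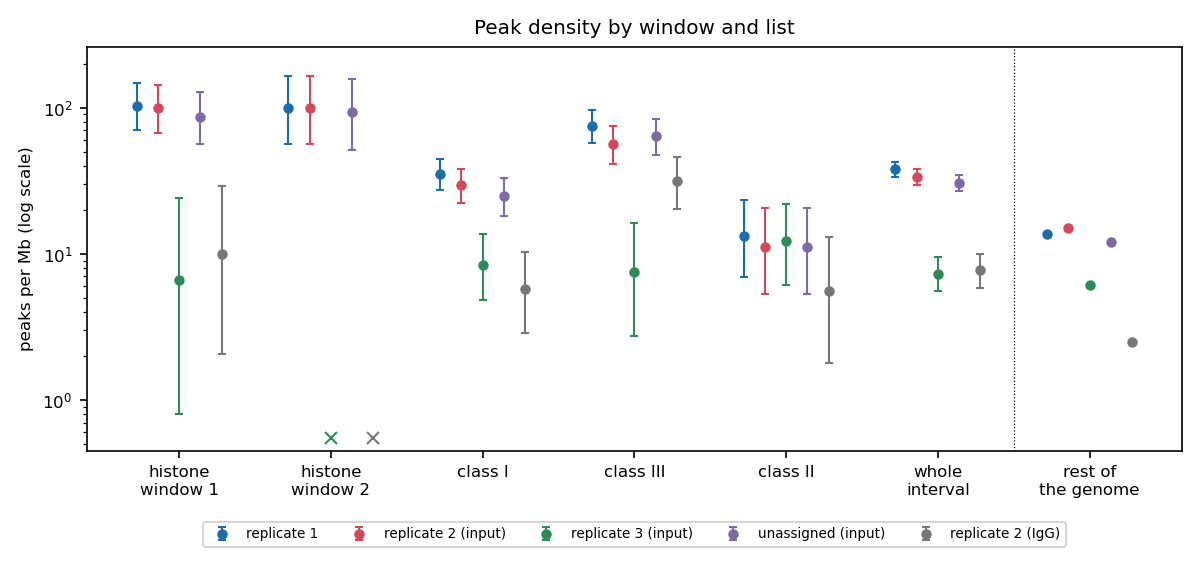
Peaks per Mb on a log scale for each window, the whole interval and, right of the dotted line, the rest of the genome, with exact 95% Poisson intervals. Crosses mark lists with 0 peaks; replicates 1 and 2 lie near 100 per Mb in both histone windows and between 11.1 and 13.3 per Mb in class II.

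Class III was the densest of the 3 MHC classes in replicates 1 and 2, while the direction of class II depended on the measure. In class III, from 31500000 to 32300000, replicates 1, 2 and 3 had 60, 45 and 6 peaks. These were 75 (57.2 to 96.5), 56.3 (41.0 to 75.3) and 7.5 (2.75 to 16.3) peaks per Mb, or 5.47-fold, 3.74-fold and 1.23-fold the rest of the genome. The mean log2 ratio was 1.55 ± 1.12 (SD, n = 3), positive in 3 of 3 libraries, with an exact sign-flip p of 0.25. Class I, from 29600000 to 31500000, had 67, 56 and 16 peaks and 2.57-fold, 1.96-fold and 1.39-fold densities. Its mean log2 ratio was 0.94 ± 0.45 (SD, n = 3), positive in 3 of 3 libraries, with the same exact p of 0.25.

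Class II, from 32300000 to 33200000, had 12, 10 and 11 peaks, so replicate 3 had about as many there as the longer lists. Its densities were 0.972-fold, 0.739-fold and 2.01-fold those of the rest of the genome. The mean log2 ratio was 0.18 ± 0.75 (SD, n = 3), positive in 1 of 3 libraries, with an exact sign-flip p of 1. Without replicate 3 it was -0.24. Among the 18232 strongest peaks of each list the densities were 1.65-fold, 1.29-fold and 2.01-fold, a mean log2 ratio of 0.70 ± 0.32 (SD, n = 3), positive in 3 of 3 libraries. Replicate 1 and replicate 2 peaks covered 1.35% and 1.69% of class II, against 0.977% and 1.26% of the rest of the genome. By covered bases the mean log2 ratio was 0.65 ± 0.36 (SD, n = 3). The 11 replicate 3 peaks of class II fell in 7 merged regions, with 4 of them in a site where replicates 1 and 2 had 1 peak each.

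The stretches outside the 5 windows differed as well. Between the histone windows replicates 1, 2 and 3 had 35, 40 and 7 peaks and 1.76-fold, 1.84-fold and 0.795-fold densities. From the second histone window to class I they had 36, 33 and 8 peaks and 1.54-fold, 1.29-fold and 0.775-fold densities. The last 0.3 Mb, from 33200000 to 33500000, held 28, 24 and 5 peaks. Its densities of 6.81-fold, 5.32-fold and 2.74-fold gave a mean log2 ratio of 2.21 ± 0.68 (SD, n = 3), positive in 3 of 3 libraries (exact sign-flip p = 0.25).

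Long empty stretches lay between these. The longest without a peak in any of the 3 replicate lists ran from 29313631 to 29596662 (283 kb), just before class I. In class II, 32522497 to 32805351 (282.9 kb) and 32371199 to 32521907 (150.7 kb) were empty, separated by a peak of replicate 2 alone. The unassigned list and the list against IgG had 0 peaks in these 3 stretches as well. Whether reads can be placed uniquely there was not tested.

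To see which peaks recurred, the 3 replicate lists were merged, peaks with at least 1 bp in common being joined. A region with peaks of at least 2 libraries is called a replicated site. The interval had 322 merged regions and 193 replicated sites, a share of 59.9% (95% binomial interval 54.4 to 65.3) against 41.1% in the rest of the genome. Over all regions of the genome the share was 41.2%. Regions with all 3 libraries numbered 27, or 8.39% (5.60 to 12.0) in the interval, against 6.98% in the rest of the genome and 6.99% over all regions. Among replicated sites alone the direction was the other way. There the 27 were 13.99% (9.43 to 19.7) of the interval's sites, against 16.996% in the rest of the genome. The latter value lay within the binomial interval. Of the 193 sites, 165 were shared by replicates 1 and 2 alone, 1 by replicates 2 and 3 alone, and 27 by all 3. The site counts therefore rest on replicates 1 and 2: without replicate 1 they came to 27 and without replicate 2 to 28.

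By replicated sites the windows ranked much as they did by peaks of replicates 1 and 2. Histone window 1 had 24 sites (80.0 per Mb, 51.3 to 119) and histone window 2 had 12 (80.0 per Mb, 41.3 to 140), with 1 and 0 sites of all 3 libraries. Class III had 38 sites (47.5 per Mb, 33.6 to 65.2), 5 of them in all 3 libraries. Class I had 46 (24.2 per Mb, 17.7 to 32.3), with 8 in all 3. Class II had 9 (10 per Mb, 4.57 to 19.0), with 4 in all 3. The rest of the genome had 8.98 sites per Mb (8.87 to 9.08), which lay within the interval for class II and below that for each of the other windows. At equal list length the site density was 46.7 per Mb in histone window 1 (14 sites), 35 in class III (28), 12.6 in class I (24), 6.67 in class II (6) and 6.67 in histone window 2 (1), against 4.67 in the rest of the genome. Histone window 2 therefore lost its place beside the first at equal list length. By the milder limit of −log10 q of at least 5, histone window 1 kept 21 of its 24 sites and histone window 2 kept 10 of its 12.

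**Figure D3:**
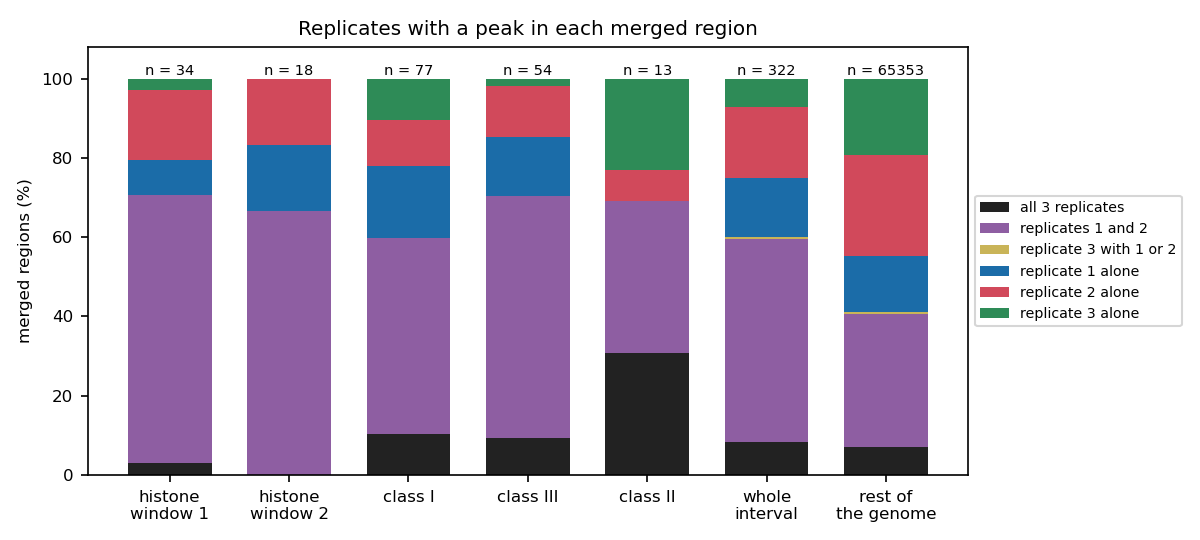
Share of merged regions, in percent, by the replicates with a peak in them, for each window, the whole interval and the rest of the genome; n is the number of regions. Regions of replicates 1 and 2 are the main class in each window, and class II has 4 of 13 regions with all 3 replicates.

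With 1 bp of overlap, interval peaks recurred in another replicate list more often than the peaks of the rest of the genome in 3 of 3 lists. Other rules did not keep this direction for every list. In replicate 1 the share was 83.1% of 284 peaks (78.2 to 87.3), against 77.3% in the rest of the genome. In replicate 2 it was 77.1% of 253 (71.4 to 82.1), against 63.1%. In replicate 3 it was 58.2% of 55 (44.1 to 71.3), against 30.8%. Over whole lists the shares were 77.3%, 63.2% and 30.8%. With an overlap of 0.5 of both widths, replicate 1 had 53.2% in the interval against 50.4% in the rest of the genome, replicate 2 had 58.5% against 45.5%, and replicate 3 had 12.7% against 4.60%. At equal list length replicate 1 had 85.2% against 85.9% and replicate 2 had 77.1% against 78.7%, so the interval was slightly below the rest of the genome in both. Replicate 3 then had 56.4% against 28.4%. Replicate 1 and replicate 2 peaks covered 2.69% and 3.32% of the interval, against 0.977% and 1.26% of the rest of the genome. The part of this coverage in the shares was not tested, and because the lists are compared with each other the 3 shares are not independent.

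Of the replicate 3 peaks, 8 of 11 in class II were shared (72.7%, 39.0 to 94.0), 5 of 6 in class III (35.9 to 99.6%) and 8 of 16 in class I (24.7 to 75.3%). In histone window 1 it was 1 of 2, outside the windows and before class I 6 of 15, and after class II 4 of 5. The intervals of the windows overlapped, but differences between the windows were not tested. The 8 shared peaks of class II lay in 4 sites, so they are not independent. The 23 interval peaks of replicate 3 alone had a median fold enrichment of 4.20, against 4.80 in the 32 shared peaks, and 1 of the 23 was in the unassigned list.

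Fold enrichment, the authors' ratio of the precipitation to its control at a peak, was higher at the median in the interval than in the rest of the genome in each replicate list. It was 5.34 in the interval and 4.67 in the rest of the genome in replicate 1, 8.53 and 6.47 in replicate 2, and 4.57 and 4.40 in replicate 3. The lists were called separately, and no test was run across them. By window this did not always hold. In class I the medians were 5.21, 8.25 and 4.35 in replicates 1, 2 and 3, the last below the rest of the genome. In class III the medians were 5.79, 12.7 and 4.71 in replicates 1, 2 and 3, and in class II 6.94, 10.7 and 5.11. In histone window 1 they were 5.66, 7.48 and 5.28, and in histone window 2 they were 4.21 and 7.74 in replicates 1 and 2, the first below the rest of the genome.

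The strongest 10% of each list by −log10 q was spread unevenly. In replicate 1 it held 17 of 284 interval peaks, or 5.99% (3.53 to 9.41), against 10% of the whole list. In replicate 2 it held 31 of 253, or 12.3% (8.48 to 16.9), against 10%. In replicate 3 it held 10 of 55, or 18.2% (9.08 to 30.9), against 10.3%, ties raising that share. Only in replicate 1 did the binomial interval lie below the share of the whole list. In the histone windows, 0 of 46 peaks were in it in replicate 1, while replicate 2 had 4 of 30 in the first and 1 of 15 in the second. Replicate 3 had 1 of 2 in the first. Class III peaks were in it in 7 of 60 cases in replicate 1 and in 13 of 45 in replicate 2, or 28.9% (16.4 to 44.3). In replicate 3 they were in it in 2 of 6. Class II had shares at least as high on fewer peaks, with 2 of 12, 3 of 10 and 4 of 11 in replicates 1, 2 and 3. Class I had 6 of 67, 4 of 56 and 1 of 16.

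**Figure D4:**
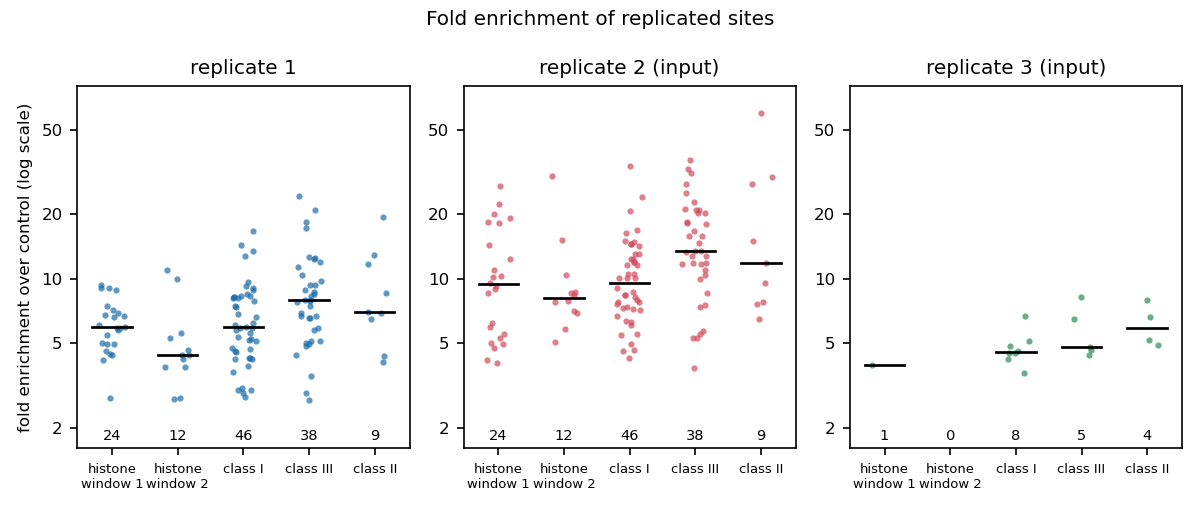
Authors' fold enrichment over control, on a log scale, at each replicated site with a peak of that library, by window; lines are medians and the numbers below count the sites. Class III has medians of 7.89 in replicate 1 and 13.5 in replicate 2, and the highest point of replicate 2, at 59.5, is in class II.

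The strongest class II site was also the widest region of the interval. It ran from 32935452 to 32939782 (4331 bp) and had fold enrichments of 19.4, 59.5 and 7.95 in replicates 1, 2 and 3. The replicate 2 peak ranked 46th of 45216 by fold enrichment, and the site had a peak of 7.06 over IgG. Further along class II, the site at 33167358 to 33169573 had 12.8, 29.9 and 6.6, and that at 33175039 to 33176736 had 11.7, 27.7 and 5.14. All 9 replicated sites of class II lay at or beyond 32805352, after the empty stretches.

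In class III the site at 31762023 to 31764548 had the highest replicate 1 and replicate 3 fold enrichments of the interval, 24.5 and 8.19, with 22.8 in replicate 2. The peak there ranked 61st of 41303 in replicate 1 and 292nd of 18232 in replicate 3. The site at 31588427 to 31590674 had 20.9, 27.8 and 6.43 in replicates 1, 2 and 3, and that at 31864614 to 31865438 had 12.4, 18 and 4.80. In class I, the site at 30293681 to 30295555 had 16.7, 16.9 and 6.67, that at 30312814 to 30313605 had 14.4, 20.7 and 5.12, and that at 30594520 to 30595164 had 8.08, 14.5 and 4.82. Replicates 1 and 2 were thus above replicate 3 at each of these class I and III sites. This order is not particular to them. At replicated sites in the rest of the genome the median fold enrichments were 5.82, 9.37 and 5.07 in replicates 1, 2 and 3.

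Histone window 1 had 1 site of all 3 libraries, at 26020669 to 26021674, with 9.28, 27.3 and 3.92 in replicates 1, 2 and 3. Its next sites by the same ranking had peaks of replicates 1 and 2 alone. At 26123307 to 26124224 the fold enrichments were 9.05 and 22.4, and at 26198165 to 26199526 they were 8.82 and 14.3. Histone window 2 had 11 and 30.1 at 27804563 to 27806122, 9.91 and 7.01 at 27777692 to 27778883, and 5.55 and 8.65 at 27861189 to 27862245. Outside the windows, replicate 2 reached 55.4 in a peak at 28890406 to 28892417, ranked 70th in its list.

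Across the interval, replicates 1 and 2 ordered the shared sites loosely alike. Spearman's rho of their fold enrichments was 0.55 over 192 sites, against 0.71 over 26568 sites of the rest of the genome. These are descriptions across sites that share their libraries. Replicate 2 was the higher at 83.3% of these sites, against 88.3% in the rest of the genome.

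Sites stood close together in the histone windows, in class III and in the stretch after class II. The median distance to the nearest site was 0.171 kb in histone window 1, 0.380 kb in histone window 2 and 1.26 kb in class III, against 4.00 kb in the rest of the genome. It was 4.12 kb in class I, 2.81 kb in class II and 0.221 kb in the stretch from class II to the interval end. Sites at most 10 kb apart were stitched, and 21 clusters of at least 3 sites resulted in the interval, or 2.80 per Mb, against 0.671 per Mb in the rest of the genome. They held 43.0% of the interval's sites, against 29.5% in the rest of the genome. Histone window 1 had 5 clusters, histone window 2 had 1, class I had 4, class III had 5 and class II had 1. The remaining 5 lay outside the windows, 4 of them after class II.

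The cluster with the most sites was in class III, from 31670352 to 31708543 (38.2 kb, 8 sites), where replicate 1 had 15 peaks, replicate 2 had 8 and replicate 3 had 0. The next was in histone window 2, from 27774542 to 27792761 (18.2 kb, 7 sites), with 8, 7 and 0 peaks. Another, after class II, ran from 33377600 to 33396532 (18.9 kb, 6 sites), with 9, 6 and 1 peaks. Clusters of 5 sites lay at 26195733 to 26206690 in histone window 1 and at 32143374 to 32164756 in class III. Replicate 3 had 0 peaks in both of these.

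**Figure D5:**
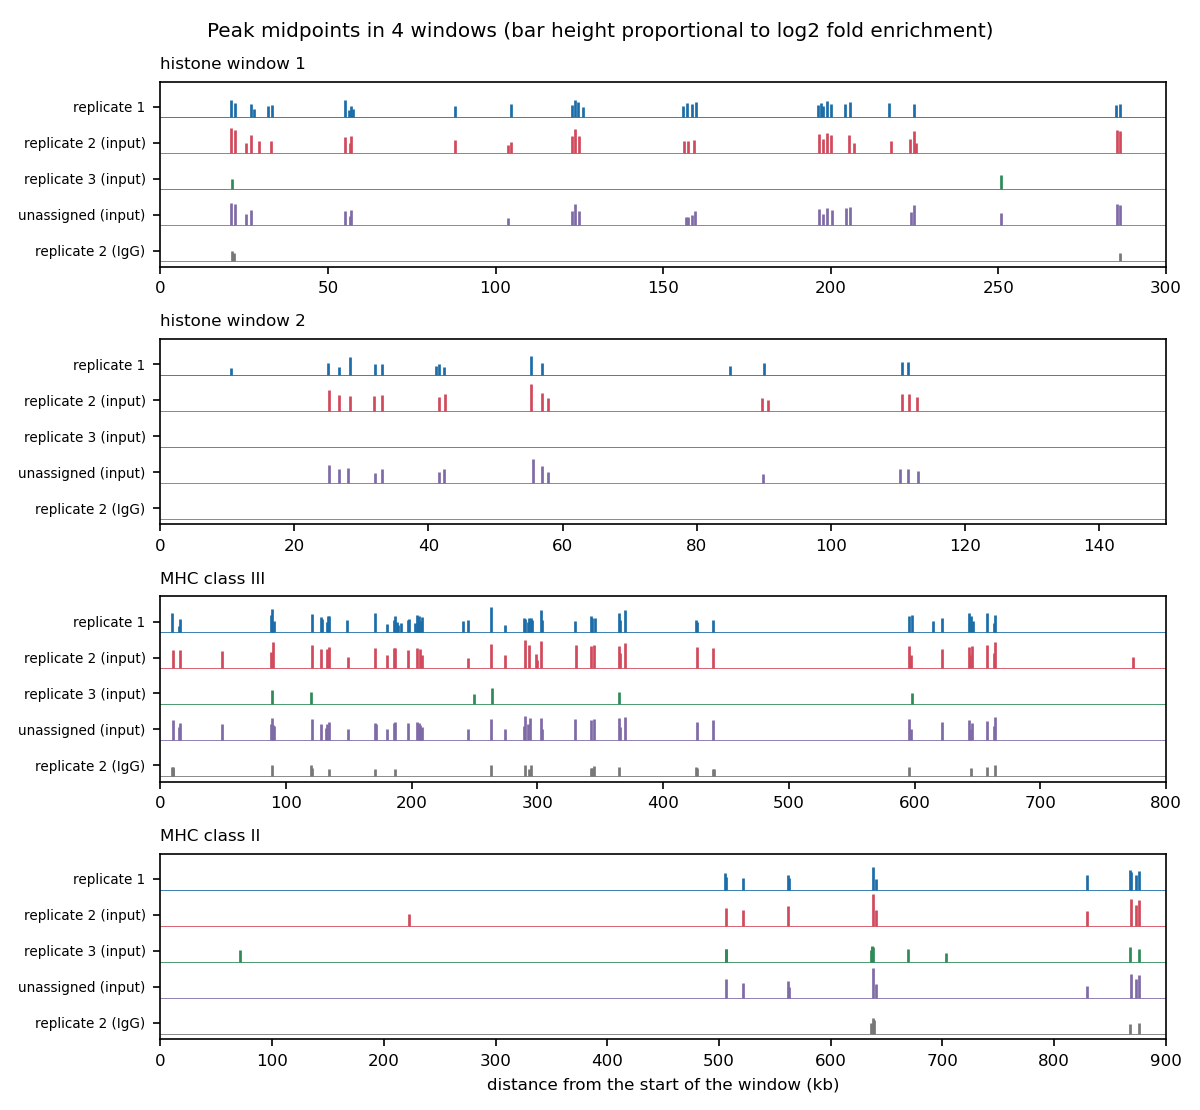
Midpoints of peaks along both histone windows, class III and class II in kb from the window start, with a row for each list and bar height proportional to log2 fold enrichment. Histone window 2 has bars in replicates 1 and 2 and the unassigned list only, and in class II the first 0.5 Mb holds 1 replicate 2 peak and 1 replicate 3 peak.

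IgG is the study's control for non-specific precipitation, and the list against it uses the same replicate 2 precipitation as the list against input. Of the 193 sites, 47 had a peak there, or 24.4% (18.5 to 31), against 23.1% in the rest of the genome and 23.2% over all sites. The interval as a whole was thus near the share of all sites. Class III had 18 of 38 (47.4%, 31 to 64.2), class I 10 of 46 and class II 3 of 9. Histone window 1 had 3 of 24 (12.5%, 2.66 to 32.4) and histone window 2 had 0 of 12, which allows up to 26.5%. By density, class III had 31.3 peaks per Mb in this list (20.2 to 46.1), against 2.49 in the rest of the genome, or 12.6-fold. These 25 class III peaks had a median −log10 q of 0.41, and most had a q above the limit used below. Interval sites in the IgG list had a median replicate 2 fold enrichment of 18.3, against 8.61 in those not in it, and class III sites had 13.5 against 9.37 in the rest of the genome. The part of this strength in the class III share was not tested.

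With q of 0.05 or less over IgG, 7 of the 193 sites had a peak, or 3.63% (1.47 to 7.33), against 5.55% over all sites. Class III had 5 of them, class I 1 and class II 1. Of all peaks in the IgG list, 1616 of 7506 had q of 0.05 or less, as did 5 of its 25 class III peaks. The class III density in that list thus came mostly from peaks above this limit. The strongest peaks over IgG were at 32936403 to 32938473, with a fold enrichment of 7.06, at 32938750 to 32939334, with 6.17, and at 30525066 to 30525564, with 5.17. The first pair lies in the widest class II site.

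The unassigned list held 175 of the 193 sites, or 90.7% (85.7 to 94.4), against 86.9% over all sites. It had each of the 38 class III sites and 19 of 24 in histone window 1.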

How the data were processed

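Peaks were measured in 3 HOXB13-K13ac libraries, with 2 IgG and 2 input libraries as controls. The submitters' processing notes name MACS2, Bowtie2, BWA and CASAVA 1.4, and the builds hg19 and GRCh37. Thresholds, filters and pooling were not given in the sources used here. The lists deposited by the authors give each peak a fold enrichment (a ratio to control) and a −log10 p and −log10 q. Summit offsets (another unit, in bases) were deposited by the authors too. Reads were not used, so depth is unknown.

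Lists were tied to libraries by their labels. SciPy 1.17.1, pandas 2.3.3 and NumPy 2.4.6 under Python 3.11.15 were used for the comparisons and Matplotlib 3.10.9 for the figures; the code was tested on simulated lists. The genome was the span between the first and last peak of any list on each chromosome, 2999 Mb in all. Densities have exact 95% Poisson intervals and shares exact 95% binomial intervals. Log2 ratios are of peak density, part over rest, and were tested over libraries.

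Members, windows and rules were chosen with earlier results of these data known. Named sites are the 3 per window with the highest lowest fold enrichment, all 3 libraries first; also named are the 5 clusters with the most sites, the top peak per list, the widest region and the 3 strongest peaks over IgG. The replicate 2 peak at 28890406 was named after its value was seen. Gene locations and motifs were planned but not run, since no hg19 genome was used here.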

Additional observations from a re-analysis of the deposited data

Results flagged for a closer look

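The unassigned list, called against input, holds 229 peaks in the interval although its name fits no library. It entered no replicate comparison other than an alternative setting in which it replaced replicate 3. That setting gave 211 replicated sites in the interval, against 193. Of its 229 interval peaks, 223 (97.4%) shared bases with a replicate 2 peak, 203 (88.6%) with a replicate 1 peak and 28 (12.2%) with a replicate 3 peak. In the rest of the genome the shares of this list were 90.8%, 76.6% and 16.4%, so the last was higher there. It contained 175 of the 193 replicated sites, or 90.7% (95% binomial interval 85.7 to 94.4), against 86.9% over all sites of the genome. All 38 class III, all 9 class II and all 12 histone window 2 sites were in it, with 19 of 24 in histone window 1 and 40 of 46 in class I. The 175 sites had a median replicate 2 fold enrichment of 11, against 5.25 in the 18 sites not in it. Its density was 2.54-fold that of the rest of the genome in the interval, 7.21-fold and 7.76-fold in the histone windows, 5.30-fold in class III and 0.924-fold in class II. Its strongest interval peak, at 32935526 to 32939632, had a fold enrichment of 43.3. Whether it shares reads with replicate 1, 2 or 3 was not given by the labels.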

How the results depend on the processing

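Of 134 alternatives, 89 kept the value within its limit, 44 moved it and 1 reversed it. The limit differed between results. A class II log2 ratio of 0.70 counted as kept beside 0.18 ± 0.75, while 2.90 in histone window 2 counted as moved beside 2.80 ± 0.09. Placing peaks by summit or by any overlap left each log2 ratio unchanged, so those settings were not a check. The class II log2 ratio reversed to -0.24 without replicate 3 (leave-one-out range -0.24 to 0.48). It was 1.13 ± 1.74 (SD, n = 3) with −log10 q of at least 5. At that setting replicate 3 kept 8 interval peaks, 3 of them in class II. The class II log2 ratio was 0.70 at equal list length, 0.65 by covered bases and 0.58 against the rest of chromosome 6. For histone window 2 it was 2.90 with −log10 q of at least 5, 2.04 at equal list length, 3.03 against the rest of chromosome 6 and 2.64 by covered bases. With summits within 100 bp, replicated sites numbered 119 in the interval, 11 and 6 in the histone windows, 28 in class I and 23 in class III. At equal list length they numbered 111 in the interval, 14 and 1 in the histone windows and 24 in class I. Sites of all 3 libraries numbered 27 in the interval, 1 and 0 in the histone windows, 8 in class I, 5 in class III and 4 in class II. Leaving out a replicate gave 27 to 192 sites in the interval, 1 to 24 and 0 to 12 in the histone windows, 8 to 46 in class I, 4 to 38 in class III and 4 to 9 in class II. The share of interval peaks in another list was 53.2% for replicate 1, 58.5% for replicate 2 and 12.7% for replicate 3 with an overlap of 0.5 of both widths, against 50.4%, 45.5% and 4.60% in the rest of the genome. With summits within 100 bp it was 40.8%, 44.3% and 36.4%, against 42.4%, 37.4% and 18.6% in the rest of the genome, which turned the direction of replicate 1. With −log10 q of at least 5 it was 85.3% for replicate 2, against 77.2%, and 75% of 8 peaks for replicate 3, against 86.5%, which turned the direction of replicate 3. Clusters numbered 5 with at least 5 sites, and 0 to 21 when a replicate was left out. The IgG share was 3.63% with q of 0.05 or less. Fewer peaks or libraries enter several of these settings; otherwise the cause was not tested. No paired analysis was possible because the IgG and input libraries that share replicate numbers have no peak lists of their own.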
